A study of Mus musculus with 4 samples.

Results

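The annexins and the S100 proteins are calcium-binding protein families that work together at membranes. Annexins bind acidic phospholipids when calcium rises, and take part in membrane repair, vesicle traffic and the control of inflammation. S100 proteins are small EF-hand proteins that form dimers, and several of them clasp the end of a particular annexin, as S100a10 does with Anxa2 and S100a11 with Anxa1. Anxa1 is long known as a glucocorticoid-regulated protein, and most S100 genes lie side by side in a cluster on mouse chromosome 3. The genes of both families were taken by the gene name of their probes, control probes aside. They were 28 of the 28146 gene names on the array, read by 37 of its 41174 probes, namely 12 annexin genes and 16 S100 genes, the latter counted with S100pbp, which encodes a binding protein of an S100 protein and is no S100 protein itself.

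RNA came from EPH-4, a non-malignant mouse mammary epithelial cell line. EV-50 is a stable clone that carries the empty shRNA vector, and shGR-19 is a stable clone that carries the same vector with an shRNA against the glucocorticoid receptor (GR, gene Nr3c1). Both also carry a puromycin resistance plasmid, and both were grown without serum and without added glucocorticoid, in 2 µg/mL puromycin. The comparison asks how the level of these genes differs between cells with depleted and with unaltered GR when no hormone is given. Each line is 1 clone, so an effect of the shRNA and a difference between clones cannot be told apart. There were 4 one-colour arrays, 2 for each line, all on 1 slide and in 1 scan. The labels do not say whether the duplicates were separate cultures, so every p-value measures only the spread between these arrays, which may be technical.

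Levels came from 2 sources, the scanner files and a deposited table of normalized log2 values centred on the median of each probe, and these sources did not match array by array. Over the 21173 probes detected throughout, the SD of the log2 difference was 0.225 between the replicate 1 scanner arrays of the different lines, less than between the duplicates of EV-50 (0.616) or of shGR-19 (0.705). In the value table the duplicates were the alike ones (0.205 and 0.210). Across probes, which are not independent replicates, the line difference of the table correlated at 0.911 with the difference of the replicate 2 scanner arrays and at 0.0431 with that of the replicate 1 scanner arrays. Scanner levels are log2 signals from which the 75th percentile of the same array was subtracted. The targeted Nr3c1 read 1.81 and 1.92 on the EV-50 arrays, but 1.46 and -0.03 on those of shGR-19 (replicate 1 first, here and below). The array labelled shGR-19 replicate 1 thus lay near the EV-50 arrays in its target. The value table gave Nr3c1 a log2 difference, shGR-19 minus EV-50, of -1.94 (SE 0.048, limma adjusted p = 0.0022). Most members named below are therefore given by source and by array. Fitted differences of the other gene lists are from the value table, unless the scanner arrays are named. Of 10 epithelial markers 9 were well above background on all 4 arrays, with Krt8 between 7.66 and 7.90. The exception, Krt19, was so on 1 array of each line and was not fitted, and its deposited values were 1.42 and 1.21 in EV-50 and -1.21 and -1.68 in shGR-19. Over the arrays, the summed level of the epithelial list ranged from 844 to 984 in EV-50 and from 796 to 1020 in shGR-19 (in units of the 75th percentile). Of 7 myeloid markers on the array, Cd68, Csf1r, Lyz2 and Mpo were well above background on all 4 arrays, while Ptprc, Itgam and Elane were so on none.

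Of the members, 30 probes of 24 genes passed the detection filter, which asks for a signal well above background in both replicates of either line, and entered the fit, with 10 annexin and 14 S100 genes among them. The 7 probes left out were those of Anxa10, S100a9 and S100g, both Anxa13 probes, and an additional probe each of Anxa3 and Anxa4. Where a gene had several probes, the brightest stands for it.

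The probes of several S100 genes lie on the stretch that codes for the second calcium-binding loop, and they share a short word. The longest word with 1 free letter (N) in the probes of at least 4 member genes was ACTTCNAGGAGT, in capitals below. It occurs in the probes of S100a5, S100a6, S100a8 and S100b, and in 7 of all 41174 probes on either strand (0.017%). Coordinates are those of the probe annotation (mm9), all on the plus strand.
S100a8, chr3:90473778-90473837: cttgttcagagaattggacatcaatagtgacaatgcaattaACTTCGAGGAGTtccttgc
S100a6, chr3:90418160-90418219: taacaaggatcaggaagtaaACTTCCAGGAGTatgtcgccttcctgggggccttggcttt
S100a5, chr3:90415491-90415550: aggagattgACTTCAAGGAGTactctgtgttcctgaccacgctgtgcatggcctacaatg
S100b, chr10:75722709-75722768: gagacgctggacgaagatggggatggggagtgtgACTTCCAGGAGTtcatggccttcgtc
Outside these letters the probes diverge. The longest run that probes of different member genes had in common was 12 of 60 bases, between S100b and S100a6. Whether a probe also binds RNA of another member was not tested.

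By the deposited values, 5 of the 30 member probes were lower in shGR-19 at an adjusted p below 0.01 and 0 were higher (limma, Benjamini-Hochberg over all 24441 probes tested), beside 6.04% of all probes lower and 5.53% higher. The 5 were S100a14, S100a8, S100a3, Anxa8 and Anxa1. Past 2-fold as well were S100a14 and S100a8, against a background of 2.39% lower and 1.87% higher. S100a8 passed the detection filter through EV-50 alone, the line where it is high. Without it 4 calls remained, 1 of them past 2-fold. At an adjusted p below 0.05 the counts were 9 lower and 6 higher, where 18.2% of all probes were lower and 18.3% higher. From the scanner files no member passed, nor did any probe of the array: the smallest adjusted p over all probes was 0.93, and 209 probes (0.855%) had an unadjusted p below 0.05, with 0 members among them. With any 1 of the 4 arrays left out the value table gave 0 calls, among the members and among all probes alike (smallest adjusted p from 0.0263 to 0.0369 over all probes), so that such a fit could not test the 5 calls. Their differences then ranged from -3.45 to -3.40 for S100a14, -3.31 to -3.20 for S100a8, -0.70 to -0.63 for S100a3, -0.88 to -0.81 for Anxa8 and -0.54 to -0.49 for Anxa1.

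**Figure D1:**
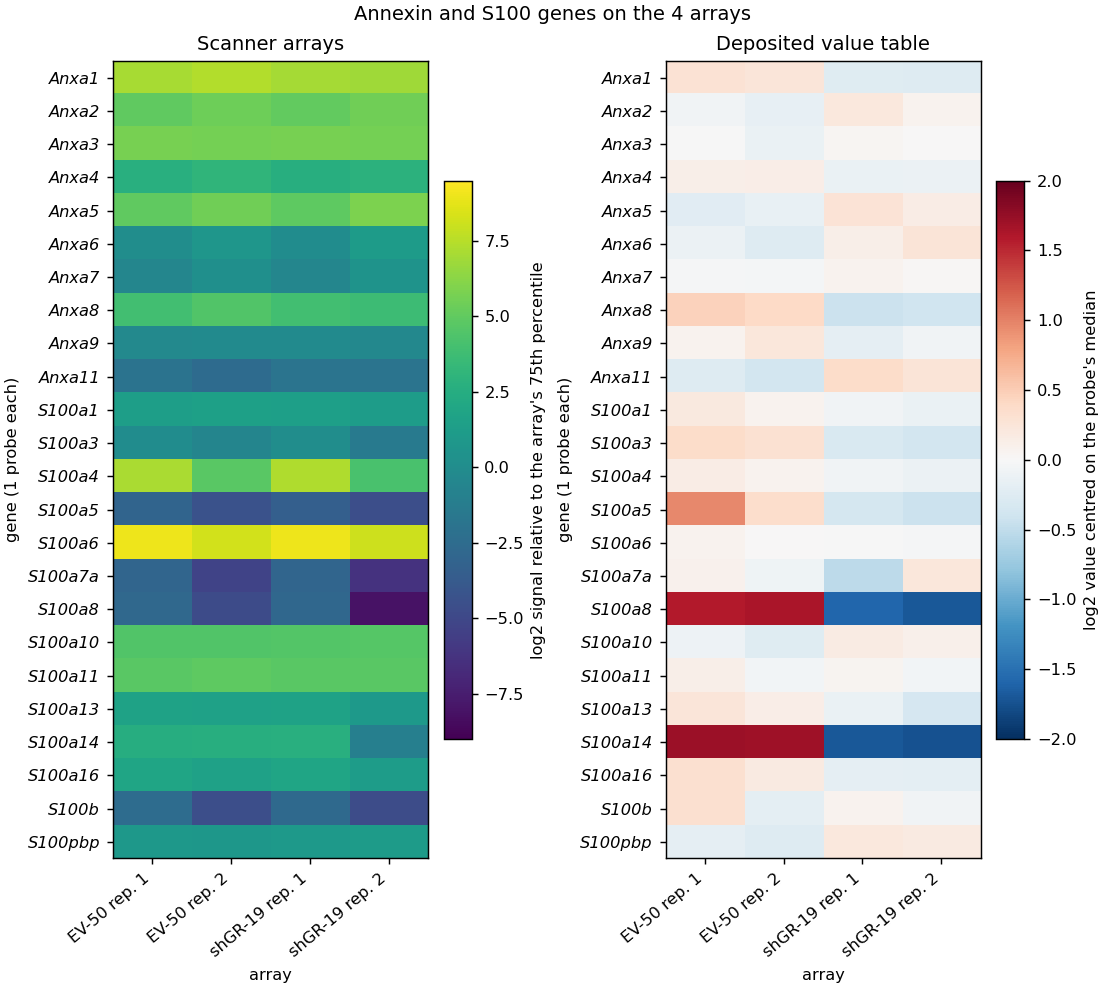
Heat map of the 24 annexin and S100 genes that entered the fit (rows, 1 probe each) on the 4 arrays (columns); the left panel gives scanner levels (log2, 75th percentile subtracted) and the right panel the deposited values (log2, centred on the median of each probe, colours limited to -2 and 2). S100a14 and S100a8 split the lines in the right panel, whereas in the left panel S100a4, S100a7a, S100a8 and S100b split the arrays labelled replicate 1 from those labelled replicate 2.

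S100a14, an S100 protein of epithelia that has been tied to cell motility, had the largest difference of the members. Its deposited values were 1.72 and 1.70 in EV-50 and -1.70 and -1.74 in shGR-19. The lines did not overlap, and the level in shGR-19 was 10.7-fold lower (log2 difference -3.42, SE 0.049, limma adjusted p = 0.0012). The scanner levels were 2.55 and 2.63 in EV-50 and 2.65 and -1.05 in shGR-19. Only the array labelled shGR-19 replicate 2 was low there, 12.8-fold below that labelled EV-50 replicate 2, while those labelled replicate 1 differed by 0.10 (log2).

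S100a8, a subunit of the inflammatory heterodimer calprotectin, followed with deposited values of 1.59 and 1.64 in EV-50 and of -1.59 and -1.70 in shGR-19. The lines again did not overlap (log2 difference -3.26, SE 0.064, limma adjusted p = 0.0017). In the scanner files S100a8 read -2.72 and -4.76 for EV-50 and -2.83 and -8.12 for shGR-19. The last of these was not well above background. S100a8 thus met the detection filter through EV-50 alone, with 1 of 2 shGR-19 arrays above background, and neither the scanner nor the deposited difference measures how low it is in shGR-19. S100a9, the other subunit, was not well above background on any array, with scanner levels of -6.96 and -7.35 for EV-50 and -7.73 and -7.26 for shGR-19, and no difference was fitted for it.

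Anxa8, an annexin first described as an anticoagulant and found in basal epithelia, had deposited values of 0.47 and 0.40 in EV-50 and of -0.42 and -0.40 in shGR-19. It was 1.79-fold lower in shGR-19 (log2 difference -0.84, SE 0.053, limma adjusted p = 0.0049). The scanner arrays gave 3.88 and 4.47 for EV-50 and 3.93 and 3.65 for shGR-19, so that the array labelled shGR-19 replicate 1 lay within the range of the EV-50 arrays. S100a3, a cysteine-rich S100 protein of the hair cuticle, had deposited values of 0.37 and 0.30 in EV-50 against -0.30 and -0.36 in shGR-19 (log2 difference -0.67, SE 0.057, limma adjusted p = 0.0075). Its scanner levels were -0.03 and -0.58 for EV-50 and 0.06 and -1.42 for shGR-19, the highest and the lowest of the 4 both carrying the shGR-19 label.

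Anxa1, which inhibits phospholipase A2 activity and mediates anti-inflammatory actions of glucocorticoids, was 1.43-fold lower in shGR-19 by the value table (log2 difference -0.51, SE 0.050, limma adjusted p = 0.0089). Its deposited values were 0.29 and 0.24 in EV-50 and -0.24 and -0.26 in shGR-19, with no overlap. The scanner levels were 7.10 and 7.34 for EV-50 and 6.999 and 6.84 for shGR-19. Both arrays labelled shGR-19 were thus below both labelled EV-50 for Anxa1 in the scanner files too, by 0.10 between those labelled replicate 1 and by 0.50 between those labelled replicate 2, although the fit across these arrays did not pass (log2 difference -0.30, SE 0.226, limma adjusted p = 1.00).

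**Figure D2:**
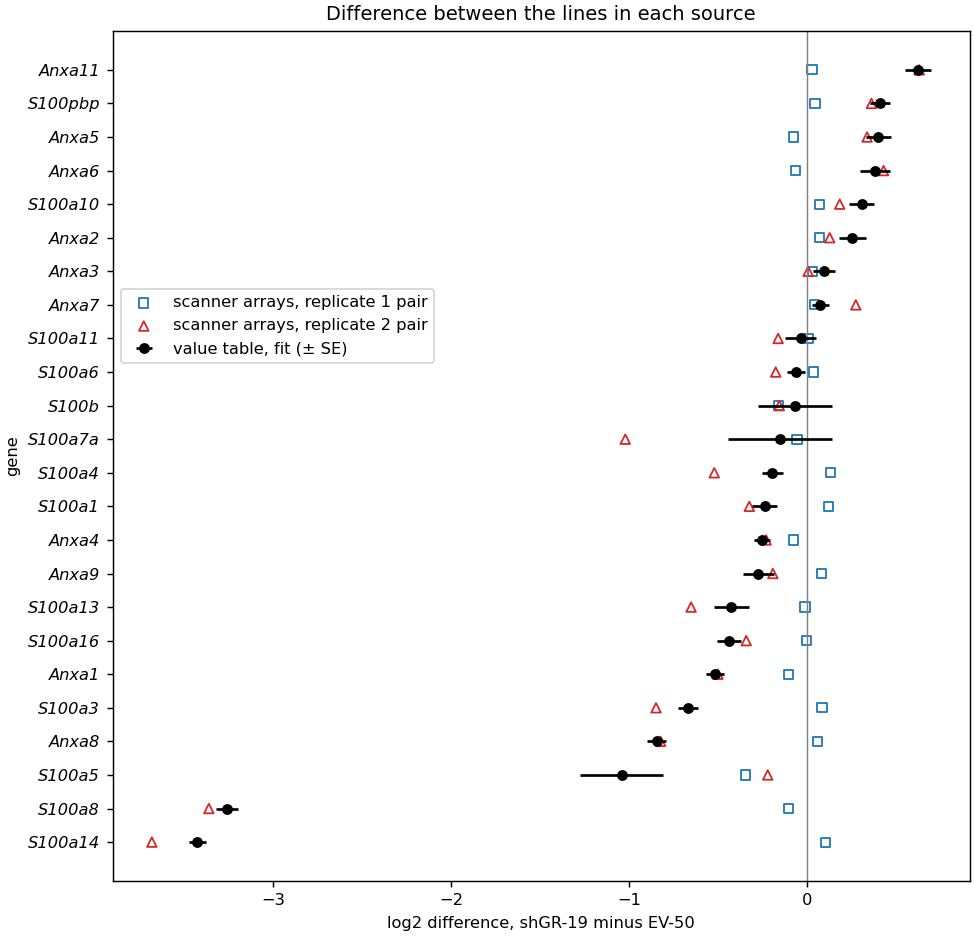
Log2 difference between shGR-19 and EV-50 (horizontal axis) for each of the 24 genes (vertical axis, ordered by the value table); filled circles are the fit of the value table with its SE (n = 2 columns per line), squares the scanner arrays labelled replicate 1 and triangles those labelled replicate 2. The squares lie between -0.35 and 0.13, and the triangles between -3.68 and 0.63.

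Anxa1 differed between the lines while its partner S100a11 had no difference past the threshold. S100a11 had deposited values of 0.12 and -0.05 in EV-50 and of 0.05 and -0.05 in shGR-19, which overlap (log2 difference -0.03, SE 0.088, limma adjusted p = 0.80). Its scanner levels were 4.79 and 4.90 for EV-50 and 4.79 and 4.74 for shGR-19. Whether the difference of Anxa1 differs from that of S100a11 was not tested.

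Anxa2, which with S100a10 forms a heterotetramer that binds plasminogen and links membranes to actin, had deposited values of -0.07 and -0.16 in EV-50 and of 0.21 and 0.07 in shGR-19 (log2 difference 0.26, SE 0.076, limma adjusted p = 0.077). A second Anxa2 probe gave 0.29 (SE 0.068, limma adjusted p = 0.047). S100a10 had deposited values of -0.11 and -0.24 in EV-50 and of 0.17 and 0.11 in shGR-19 (log2 difference 0.31, SE 0.071, limma adjusted p = 0.045). Both partners had higher values in both shGR-19 columns, and neither passed the 0.01 threshold. Scanner levels of Anxa2 were 4.96 and 5.38 for EV-50 and 5.04 and 5.51 for shGR-19, and those of S100a10 were 4.51 and 4.46 against 4.58 and 4.64.

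Anxa11, which tethers RNA granules to lysosomes and binds S100a6, had the largest difference above 0 among the members. Its deposited values were -0.26 and -0.36 in EV-50 and 0.37 and 0.26 in shGR-19 (log2 difference 0.62, SE 0.072, limma adjusted p = 0.012), just short of the threshold. The scanner arrays gave -1.92 and -2.54 for EV-50 and -1.89 and -1.91 for shGR-19. Here the array labelled EV-50 replicate 2 was the low one and the other three read alike. S100a6 (calcyclin), its partner, had deposited values of 0.07 and 0.01 in EV-50 and of -0.01 and -0.03 in shGR-19 (log2 difference -0.06, SE 0.050, limma adjusted p = 0.43).

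Of the annexins outside these pairs, Anxa5, which binds exposed phosphatidylserine, had deposited values of -0.22 and -0.15 in EV-50 and of 0.27 and 0.15 in shGR-19 (log2 difference 0.40, SE 0.070, limma adjusted p = 0.026). Anxa6, a large annexin with a doubled core, had -0.12 and -0.26 against 0.12 and 0.27 (log2 difference 0.38, SE 0.086, limma adjusted p = 0.044). Both were higher in both shGR-19 columns without passing 0.01. In the scanner files Anxa5 read 4.96 and 5.51 for EV-50 and 4.89 and 5.85 for shGR-19, and Anxa6 read 0.05 and 0.75 against -0.01 and 1.18. For these probes each array labelled replicate 2 read above each labelled replicate 1. A second Anxa6 probe, at -2.60 and -2.84 against -3.56 and -2.61, did not keep that order. Its difference in the value table was 0.17 (limma adjusted p = 0.087). Anxa7 (synexin), a membrane-fusing annexin, had deposited values of -0.02 and -0.04 in EV-50 and of 0.07 and 0.02 in shGR-19 (log2 difference 0.08, SE 0.049, limma adjusted p = 0.30). Its probes disagreed in direction, the others giving -0.33 and -0.12, neither past the threshold. Its scanner levels were -0.54 and 0.22 for EV-50 and -0.49 and 0.49 for shGR-19. Over the 10 annexin genes the median log2 difference in the value table was 0.09, with 4 genes below and 6 above 0, beside a median of 0.01 over all probes.

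The S100 genes leaned lower, with 12 of 14 below 0 and a median of -0.22. Those of the chromosome 3 cluster accounted for most of this. Over 158.7 kb from S100a1 to S100a8 (chr3:90315133-90473837 in mm9), all of the 10 genes fitted had a difference below 0 in the value table, beside 49% of all probes. Of the 10, 3 passed an adjusted p of 0.01, beside 6.04% of all probes lower at that threshold. The median of the 10 was -0.43 and their range -3.42 to -0.06. The differences did not follow the order on the chromosome. S100a14 and S100a8, at 17.3 and 158.6 kb from the S100a1 probe, had the lowest fitted differences, and the genes between them ranged from -1.04 for S100a5 to -0.06 for S100a6. Between the scanner arrays labelled replicate 2 all 10 were again lower in shGR-19, with a median of -0.58 beside 48.2% of all probes below 0, whereas between those labelled replicate 1 the count was 5 of 10, the median 0.02 and the share of all probes below 0 40.4%. S100a8 and S100a7a passed the detection filter through EV-50 alone. Without them 8 of 8 genes were below 0 in the value table, with a median again of -0.43 and 2 calls. The value table and the replicate 2 arrays are not independent, and neighbouring genes are not replicates. S100a10 and S100a11, which lie apart from the cluster on the same chromosome, were at 0.31 and -0.03. Of 29 other genes fitted within 1 Mb of the cluster, 10 were below 0, and the median of the 29 was 0.11. Their probes lay at -816.8 to 92.7 kb from the start of the S100a1 probe. None lay beyond S100a8, so that side of the cluster was not covered.

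**Figure D3:**
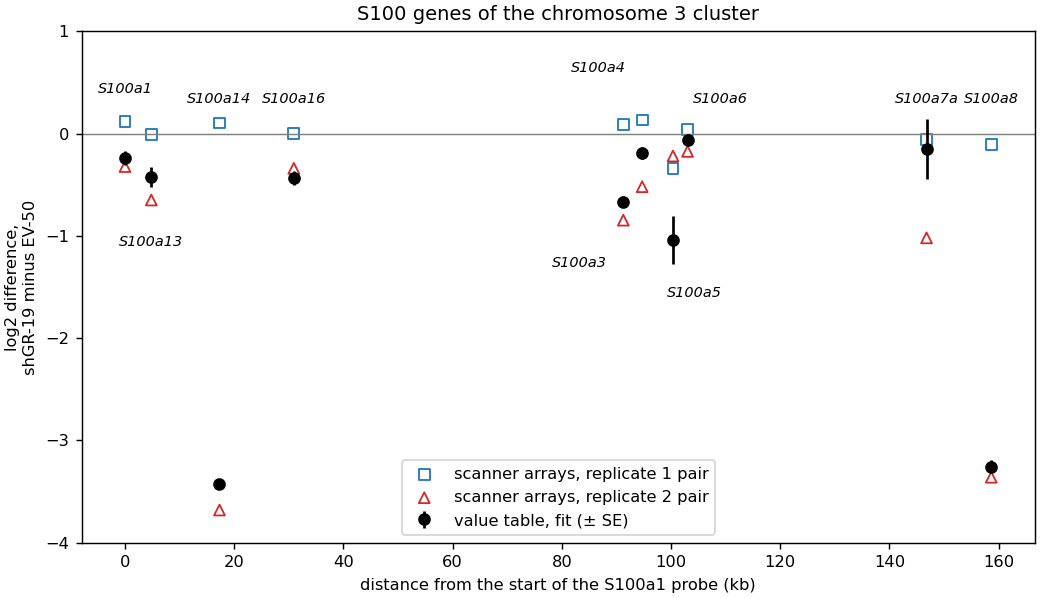
Log2 difference between shGR-19 and EV-50 (vertical axis) for the 10 S100 genes of the chromosome 3 cluster against the distance of their probes from the start of the S100a1 probe (horizontal axis, kb); filled circles are the value table with the SE of the fit, squares the scanner arrays labelled replicate 1 and triangles those labelled replicate 2. Every circle and triangle lies below 0, S100a14 and S100a8 by more than 3, and the squares lie between -0.35 and 0.13.

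S100a4 (metastasin), which binds non-muscle myosin and is known from migrating and metastatic cells, showed another pattern. Its deposited values were close together, 0.14 and 0.065 in EV-50 and -0.065 and -0.11 in shGR-19 (log2 difference -0.19, SE 0.057, limma adjusted p = 0.076). On the scanner arrays it read 7.19 and 4.74 for EV-50 and 7.32 and 4.22 for shGR-19. The duplicates of EV-50 thus differed 5.45-fold and those of shGR-19 8.56-fold, while the arrays labelled replicate 1 differed by 0.13 (log2) between the lines.

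The split by replicate label was shared by 5 S100 genes, each more than 2-fold higher on the array labelled replicate 1 than on its duplicate in both lines, beside 2.17% of all probes. They were S100a4, S100a5, S100a7a, S100a8 and S100b; of these S100a5, S100a7a and S100b were singled out after their values were seen. S100b, best known from glia, read -2.49 and -4.52 for EV-50 and -2.65 and -4.68 for shGR-19, a 4.09-fold and a 4.08-fold drop from replicate 1 to replicate 2. S100a7a, a relative of human psoriasin, read -2.95 and -5.30 for EV-50 and -3.001 and -6.32 for shGR-19, the last not well above background. S100a6 leaned the same way, with 9.01 and 8.26 for EV-50 against 9.05 and 8.08 for shGR-19. No annexin was split upward in this way, and none was more than 2-fold lower on the replicate 1 array in both lines (2.55% of all probes were). Summed levels of other lists also differed by replicate label, but largely through single genes. The summed level of 8 mesenchymal markers was 2.15 and 1.98 on the arrays labelled replicate 1 of EV-50 and shGR-19 and 4.87 and 16.8 on those labelled replicate 2, but most of the latter was Pdgfrb, and the sum of the other 7 was 1.93 and 1.73 on the former arrays and 1.44 and 1.44 on the latter. That of 6 basal markers was 70.1 and 72.1 against 174 and 85.3. Most of it was Krt14, with scanner levels (log2) of 5.70 and 7.25 for EV-50 and 5.72 and 6.06 for shGR-19. The part of these markers in the S100 values was not tested. Cdh2, of the mesenchymal list, was not well above background on any array.

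**Figure D4:**
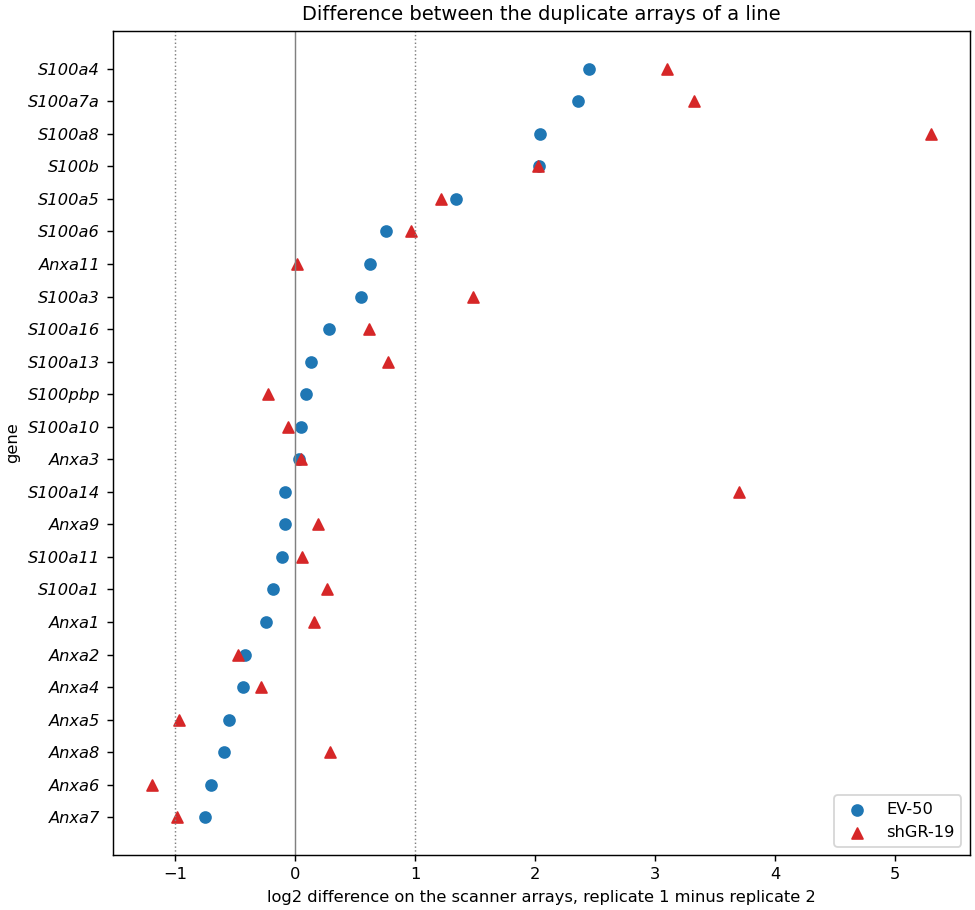
Log2 difference on the scanner arrays between replicate 1 and replicate 2 of a line (horizontal axis) for each of the 24 genes (vertical axis); circles are EV-50, triangles shGR-19 and dotted lines mark a 2-fold difference. The genes S100a4, S100a5, S100a7a, S100a8 and S100b lie beyond 1 in both lines, and S100a14 and S100a3 do so in shGR-19 alone, as does Anxa6 below -1.

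The other 10 genes fitted had no difference past an adjusted p of 0.01 in the value table. They ranged from -1.04 to 0.41, with 8 below 0. The lowest was S100a5, with deposited values of 0.96 and 0.35 in EV-50 and of -0.35 and -0.43 in shGR-19 (SE 0.236, limma adjusted p = 0.044), and the highest was S100pbp. A second S100pbp probe disagreed in direction, at -0.05 (limma adjusted p = 0.85). Over all 24 genes the columns of the lines did not overlap for 13 genes lower and 8 higher in shGR-19, where 35.3% and 36.6% of all probes did the same.

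Promoter windows from RefSeq (GRCm38.p6, from 250 bases before to 50 after each annotated start) were read for the members, since GR acts through DNA elements near and far from promoters. There were 31 windows of 23 member genes, and none for S100a14. An exact match to the full glucocorticoid response element, AGAACA and its reverse complement TGTTCT with any 3 bases between them, was in 0 of the 31 windows and in 3 of all 32851 (0.00913%), searched on both strands. An exact match is so rare that its absence from 31 windows says little of the members, and looser matches were not searched. The single arm AGAACA of the element was in 3 member windows, of S100a3, S100a6 and Anxa4, and in 19% of all windows. The TATA box TATAAA was in 8 member windows, of S100a3, S100a4, S100a8, S100a9, S100g, Anxa1, Anxa2 and Anxa10, and in 13.6% of all. The windows of 3 genes that were lower in the value table are shown, with AGAACA and TATAAA in capitals, those of S100a8 and S100a3 from the plus strand of the chromosome and that of Anxa1 from the minus strand. They were picked because they hold a motif. The window of Anxa8, also lower, holds neither, and of the 4 windows of S100a3 only the one shown holds either. In that of S100a8 TATAAA begins 30 bases before the start (position -30), in that of Anxa1 at -32, and in the window of S100a3 that holds both motifs TATAAA begins at -52 and AGAACA at -115. These are matches of letters and do not show binding.
S100a8, chr3:90668821-90669120: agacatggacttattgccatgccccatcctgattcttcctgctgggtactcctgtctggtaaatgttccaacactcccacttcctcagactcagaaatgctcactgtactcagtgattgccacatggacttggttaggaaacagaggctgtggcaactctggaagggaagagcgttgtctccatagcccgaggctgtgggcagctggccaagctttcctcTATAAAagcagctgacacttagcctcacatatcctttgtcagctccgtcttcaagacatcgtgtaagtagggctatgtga
S100a3, chr3:90588313-90588612: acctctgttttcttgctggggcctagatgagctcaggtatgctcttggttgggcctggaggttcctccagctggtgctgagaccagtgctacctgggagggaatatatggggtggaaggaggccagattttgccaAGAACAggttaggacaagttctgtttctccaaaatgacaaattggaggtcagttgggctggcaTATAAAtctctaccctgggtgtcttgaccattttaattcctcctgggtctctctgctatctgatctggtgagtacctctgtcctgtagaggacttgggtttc
Anxa1, chr19:20390622-20390921: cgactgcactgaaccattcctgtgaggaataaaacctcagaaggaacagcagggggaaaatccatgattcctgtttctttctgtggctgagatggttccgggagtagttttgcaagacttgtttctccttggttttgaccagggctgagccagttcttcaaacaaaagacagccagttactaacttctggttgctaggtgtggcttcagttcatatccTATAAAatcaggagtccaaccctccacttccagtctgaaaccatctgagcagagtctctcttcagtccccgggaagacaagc

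Among receptors and binding partners of the families, 20 of 27 listed genes could be fitted in the value table. Of these 1 was lower and 2 were higher at an adjusted p below 0.01, beside 6.04% of all probes lower and 5.53% higher. None passed 2-fold, and the median was 0.11 beside 0.01 over all probes. The higher ones were Plau (urokinase, which activates plasminogen) at 0.99 (SE 0.064, limma adjusted p = 0.0050) and Pla2g4a (the cytosolic phospholipase A2) at 0.63 (SE 0.047, limma adjusted p = 0.0062). The lower was Hltf, a helicase-like factor, at -0.75 (SE 0.054, limma adjusted p = 0.0059). Fpr1 and Fpr2, the formyl peptide receptors through which Anxa1 signals, were not well above background on any array. Of other EF-hand genes 10 of 16 were fitted, with 2 lower and 2 higher, beside the same shares of all probes. Calml4, a calmodulin-like protein, was 4.01 higher by log2 (SE 0.062, limma adjusted p = 0.0013), and Calu (calumenin, of the secretory pathway) was at -1.001 (SE 0.058, limma adjusted p = 0.0045). Between the scanner arrays Calml4 differed by 0.18 for those labelled replicate 1 and by 4.18 for those labelled replicate 2. Rcn1 and Rcn2 (reticulocalbins) stood at -0.83 and 0.92. Of the epidermal and other neighbours of the S100 cluster 11 of 27 were fitted and 0 passed in either direction, with a median of -0.09. Outside the naming rule and with their values seen, Pglyrp3, a peptidoglycan recognition protein, was at -4.18 (SE 0.814, limma adjusted p = 0.032) and Lor (loricrin, of the cornified envelope) at -1.40 (SE 0.148, limma adjusted p = 0.0103).

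Of the marker lists, 9 of 10 epithelial genes were fitted and 0 passed. Of 6 basal genes 2 were lower, beside 6.04% of all probes, Krt14 at -1.13 (SE 0.049, limma adjusted p = 0.0033) and Krt17 at -0.81. The remaining basal genes did not pass. Trp63, Krt5 and Acta2 were at -0.40, -0.30 and -0.17, and Myh11 went the other way at 0.39. Myh11 was well above background on 1 of 2 EV-50 arrays. Of 8 mesenchymal genes 7 were fitted and 3 were higher, beside 5.53% of all probes, namely Pdgfrb at 2.03, Vim at 1.82 and Pdgfra at 1.16. Pdgfra was well above background on 1 of 2 EV-50 arrays, and so passed the detection filter through shGR-19 alone. Of the others, Snai2 was at -0.31 (limma adjusted p = 0.022), and Twist1, Zeb1 and Zeb2 were at 0.07, 0.13 and 0.02. Of 8 myeloid genes 4 were fitted and 1 was higher, Lyz2 at 0.76, beside 5.53% of all probes higher. The scanner arrays gave Lyz2 a difference of 0.23 for those labelled replicate 1 and of -0.30 for those labelled replicate 2. The part of these markers in the differences of the annexins and S100 genes was not tested.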

How the data were processed

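Total RNA (300 ng per sample) was amplified, labelled with Cy3 and read on Agilent Whole Mouse Genome arrays. The authors deposited scanner intensity values from Agilent Feature Extraction 10.5.1.1 (background-subtracted, not scaled between arrays) and a table of log2 values from GeneSpring, whose rows all have a median of 0 over the 4 columns. The column medians of that table were 0.08, 0.04, -0.06 and -0.06 for EV-50 replicates 1 and 2 and shGR-19 replicates 1 and 2. Depth has no meaning for arrays; their number, 2 per line, limits the precision.

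Outlier spots were left out, 74 to 139 per array, no spot was saturated, and spots of a probe were averaged. From the log2 processed signal, the 75th percentile of each array (516 to 584 before log2) was subtracted. The fit took the 24441 of 41174 probes whose signal stood well above background in both replicates of either line. Both sources were fitted with limma 3.58.1 (R 4.3.3) over all kept probes, with Benjamini-Hochberg adjustment. Calls were adjusted p below 0.01, also with more than 2-fold. An exact permutation test of 2 against 2 arrays cannot go below p = 0.333. In simulated data made like the value table, the fit recovered 67% of 200 changed probes with 1 false call. In data made like the scanner files it recovered 0%. The changes put in were each at least 2 in log2 size, and recovery asked for both the p and the 2-fold threshold. Noise was drawn for each array on its own. These rates were not split by the size of the difference. Recovery at the value table differences of Anxa1, S100a3 and Anxa8 (-0.51, -0.67 and -0.84) was not tested. The number of false calls in the value table itself was not tested either.

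Values on each array are given for genes that passed in the value table, for known partner pairs (Anxa2 and S100a10, Anxa1 and S100a11, S100a8 and S100a9, Anxa11 and S100a6) and for S100a4, Anxa5, Anxa6 and Anxa7; other members are given by counts and ranges, and of the other lists those past 2-fold, with the few that passed without it named beside their counts. The members, the lists and the S100 cluster as a group were chosen with earlier results of these data known. Alternatives changed the probe filter, normalization, background, prior, test, block, arrays and probe choice. Protein sequences were not used here. Results of a few listed genes, among them the glial or melanocytic marker list, are not reported here.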

Additional observations from a re-analysis of the deposited data

How the results depend on the processing

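The counts of calls in the value table moved with several settings; with the replicate block or an array left out 0 of all 24441 probes passed, so these fits say nothing about the stability of the calls. The 5 lower member probes became 1 with all probes kept, 0 with the replicate block, 0 with the equal-variance test of the methods after Benjamini-Hochberg adjustment, 0 in the scanner files, 9 with an intensity trend and robust prior and 9 at an adjusted p below 0.05 (18.2% of all probes), and 0 whichever array was left out. The 0 higher became 1 with the methods' test unadjusted, 7 with the trend and robust prior, 2 with only probes detected on all 4 arrays and 6 at an adjusted p below 0.05 (18.3% of all probes). The 2 lower past 2-fold became 1 with all probes kept, 1 with only probes detected on all 4 arrays (S100a8 is then not tested), 0 with the block, 0 with the methods' adjusted test, 0 in the scanner files and 0 whichever array was left out. The 0 lower of the scanner files became 5, and past 2-fold 2, in the value table.

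Alternatives of the difference itself were run for Nr3c1 and 14 of the 24 genes. Among these, directions in the value table held except for Anxa7 (-0.13 as the mean of its probes) and S100a11 (-0.12 to 0.0539 with an array left out). Nr3c1 stayed at -1.94 with all probes kept (adjusted p = 0.011), with the methods' adjusted test (0.020) and with the block (0.029), and ranged from -1.95 to -1.92 with an array left out. Over all alternatives in the value table Nr3c1 ranged from -1.95 to -1.68. In the scanner files 0 genes passed under any setting, and with an array left out the difference ranged from -0.14 to 0.34 for Anxa2, -0.35 to 0.62 for Anxa5, -0.41 to 0.78 for Anxa6, -0.33 to 0.65 for Anxa7, -3.64 to 0.0624 for S100a14, -1.12 to 0.36 for S100a3, -1.74 to 1.35 for S100a4, -0.55 to 0.42 for S100a6 and -4.38 to 0.92 for S100a8. As the mean of their probes Anxa6 was at -0.0894 and Anxa7 at -0.0352. Nr3c1 was at -0.976 as the mean of its probes, beside -1.15 for its brightest probe. The turns to above 0 for S100a14, S100a3 and S100a8 came without shGR-19 replicate 2. The cause of these shifts was not tested. The labels number the duplicates without saying that a number marks a pairing; deviations of the same-numbered arrays correlated at 0.65 in the scanner files and 0.11 in the value table, over 2 pairs only.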
